A study of Mus musculus with 4 samples.

Results

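Chemokines are small secreted proteins that attract leukocytes and other cells, and chemokine receptors are the G protein-coupled receptors on the cells that respond to them. The genes described here are those with a single symbol on the array that begins with Ccl, Ccr, Cxcl, Cxcr, Cx3c or Ackr followed by the member's number or letter. A gene with several rows was read from its brightest row on average. This gave 54 of 22180 genes, 33 ligands and 21 receptors. Ligand names give the spacing of the first cysteines (CC, CXC or CX3C), and the receptors carry the class of the ligands they bind. The 4 atypical receptors (Ackr) bind and remove chemokines without the usual G protein signal.

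The cells were primary vascular smooth muscle cells (VSMCs) from the aorta of mice lacking Apoe (Apoe(−/−)) with floxed Mmp14 alleles (Mmp14(fl/fl)), the gene of the membrane-bound protease MT1-MMP. The knockout group was SM22α-Cre(+)Mmp14(fl/fl)Apoe(−/−) and the control group was SM22α-Cre(−)Mmp14(fl/fl)Apoe(−/−), with 2 arrays each. The mice of both groups, from 2 independent pairs, had eaten a Western diet for 3 months, and the cells had been cultured for 5 days; no source used here gives the ages of the mice. The adventitia was removed from the thoracic aortas before digestion, and the cells had been stained for smooth muscle proteins, per the labels. Cre was driven from the promoter of SM22α, a smooth muscle gene, so cells without that promoter's activity in the same cultures keep Mmp14, and a Cre-positive group without floxed alleles was not part of the comparison.

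In the arterial wall, chemokines made by smooth muscle, endothelial cells and macrophages guide monocytes and T cells into atherosclerotic lesions. Ccl2 and its receptor Ccr2 bring in monocytes, Cx3cl1 holds Cx3cr1-bearing monocytes at the vessel wall, and Cxcl12 with Cxcr4 keeps progenitor cells and leukocytes in place. The comparison asked which of these transcripts differed in VSMC cultures from mice without smooth muscle MT1-MMP.

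All values are log2 expression values, on which a difference of 1 is a 2-fold ratio. Mmp14 read 8.27 and 8.19 in the knockout arrays, against 8.71 and 9.05 in the control arrays, a difference of -0.65 (SE 0.17; adjusted p = 0.319, limma). The array reads probes along the transcript, and which of them fall in the deleted exons is not known here, so Mmp14 checks the labels only in part. All 8 smooth muscle markers were above the filter on dim genes, with Acta2 (smooth muscle actin) at 11.4 and 10.9 in the knockout arrays and overlapping values in the control arrays. The 11 macrophage markers were also above it in this culture labelled as VSMCs. Pearson's r over all rows was 0.982 between the knockout arrays, 0.981 between the control arrays and 0.974 to 0.980 across groups.

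Knockout arrays had higher values of Cxcr4, Cxcl16, Ccl3, Ccl4, Ccl9, Ccr1, Cxcl5 and Cxcl14 and lower values of Cxcl12 and Ccl25 than control arrays, without overlap between the groups. These differences ran from 1.01 (Ccl4) to 2.50 (Cxcl14) among the higher genes, and were -1.07 for Cxcl12 and -0.60 for Ccl25. None passed the adjustment over all genes. By limma with Benjamini-Hochberg adjustment, 0 of the 31 members tested were called, as were 0 of all 12550 genes (0%), and the smallest adjusted p of a member was 0.144, for Cxcr4. At an unadjusted limma p under 0.05 there were 8 members higher and 2 lower, where the background was 4.89% of all tested genes higher and 6.78% lower, 11.7% in all. These are the 10 genes named at the start of the paragraph.

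Of the 54 members, 31 had a mean at or above 3.02, the median of all row means, and were tested, 24 ligands and 7 receptors. The 23 others were too dim to test, 9 ligands and 14 receptors, and their single values ran from 1.84 to 3.84. Among the tested members 15 were higher and 5 lower in the knockout arrays without overlap, and 11 overlapped. Of all tested genes 16.7% were higher and 27.5% lower without overlap, 44.3% in all. With a difference of at least 1 as well, 9 members were higher and 1 lower, beside 1.79% and 1.29% of all tested genes. Ackr2, Ccl22, Ccl12 and Cxcl1 had a control mean below the filter level and passed it through the knockout arrays, so these counts describe and do not support a direction. Without these 4, 12 members were higher, 5 lower and 10 overlapped. Among the 23 dim members 6 were higher and 3 lower without overlap, where 19.5% of all dim genes were higher and 15.1% lower.

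**Figure D1:**
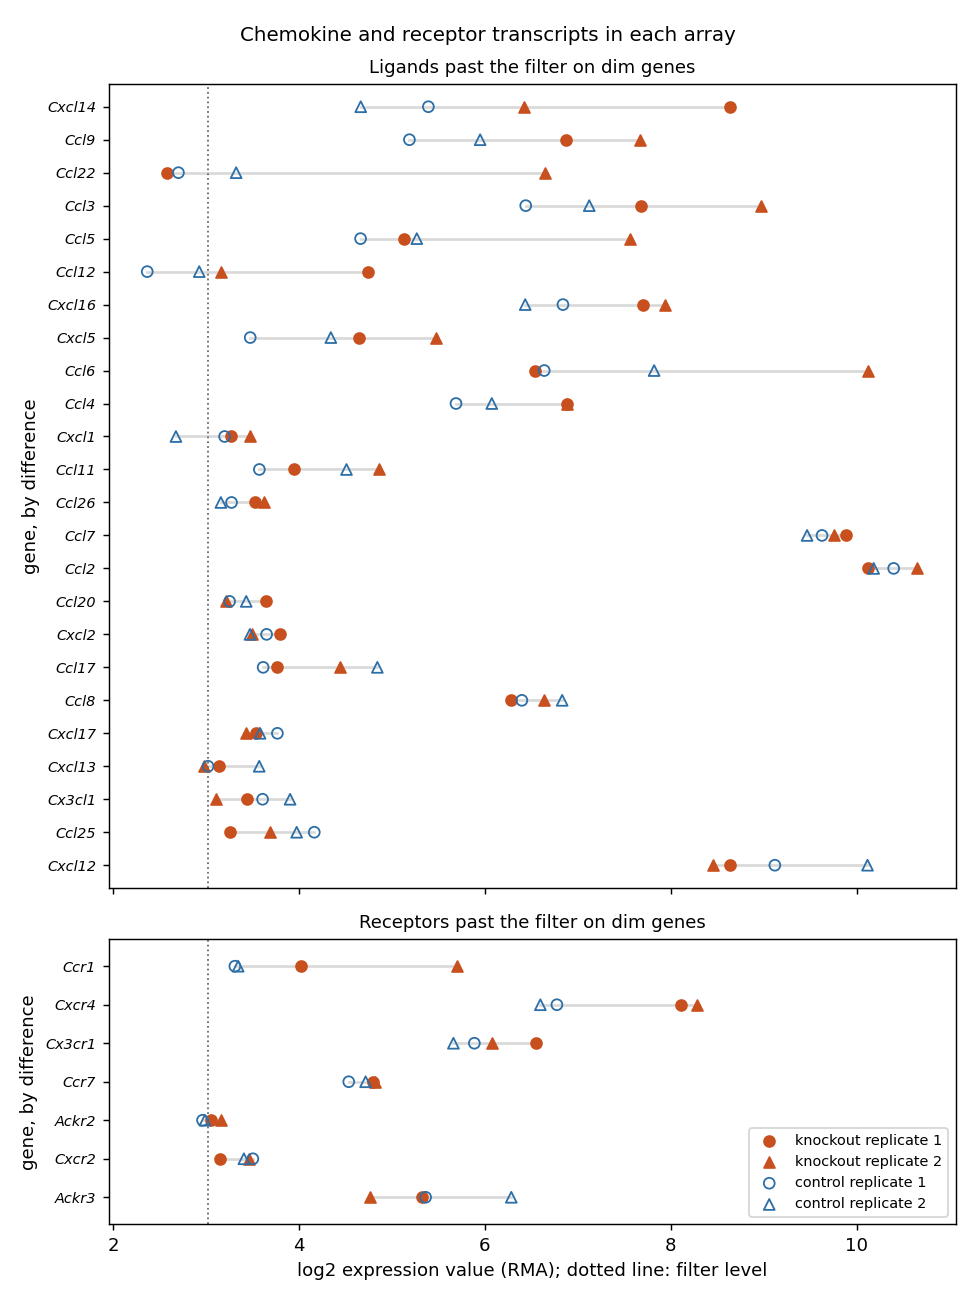
Log2 expression values (x axis) of the 24 ligands and 7 receptors past the filter on dim genes (y axis, ordered by difference), with filled symbols for the knockout arrays and open symbols for the control arrays, circles for replicate 1 and triangles for replicate 2. The dotted line is the filter level of 3.02. Cxcr4 and Cxcl16 have tight groups far apart, while Ccl22, Ccl6 and Ccl5 stand high in knockout replicate 2 only.

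The promoters of 5 members that lead the results are printed here, since these are the gene with the largest difference (Cxcl14), neighbouring genes that were higher together (Ccl9 and Ccl3) and a receptor and its ligand that differed in opposite directions (Cxcr4 and Cxcl12). Each runs 5′ to 3′ along its gene, from 250 bases before the RefSeq start to 50 bases after it, in build GRCm38.p6. Capitals mark matches to the kappa B motif of NF-kB, to TGANTCA (an AP-1 site), GAGGAA (a core bound by PU.1), TTCNNNGAA (a STAT site) or TATAAA on either strand. Adjoining capitals can be overlapping matches on both strands, and TGANTCA and TTCNNNGAA read the same on both strands. Cxcl14 lies at chr13:56296502-56296801 (minus strand), Ccl9 at chr11:83578587-83578886 (minus strand), Ccl3 at chr11:83649329-83649628 (minus strand), Cxcr4 at chr1:128592250-128592549 (minus strand) and Cxcl12 at chr6:117168285-117168584 (plus strand).
Cxcl14: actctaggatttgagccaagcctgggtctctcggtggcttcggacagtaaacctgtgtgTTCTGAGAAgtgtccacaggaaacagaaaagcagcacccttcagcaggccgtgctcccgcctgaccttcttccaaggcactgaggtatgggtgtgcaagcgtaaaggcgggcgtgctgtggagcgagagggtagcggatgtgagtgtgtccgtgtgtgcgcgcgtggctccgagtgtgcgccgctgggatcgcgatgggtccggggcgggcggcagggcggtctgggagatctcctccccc
Ccl9: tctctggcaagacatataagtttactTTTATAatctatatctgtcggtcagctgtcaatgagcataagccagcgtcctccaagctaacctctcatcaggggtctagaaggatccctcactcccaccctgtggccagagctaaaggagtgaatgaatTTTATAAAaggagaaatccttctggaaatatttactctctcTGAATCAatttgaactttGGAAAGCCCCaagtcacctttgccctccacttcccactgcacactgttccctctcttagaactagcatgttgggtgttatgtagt
Ccl3: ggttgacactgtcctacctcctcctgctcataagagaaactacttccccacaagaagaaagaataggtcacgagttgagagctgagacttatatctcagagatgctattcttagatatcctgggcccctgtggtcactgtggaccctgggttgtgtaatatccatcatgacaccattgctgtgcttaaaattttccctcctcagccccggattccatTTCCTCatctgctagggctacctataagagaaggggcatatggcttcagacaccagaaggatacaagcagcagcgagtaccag
Cxcr4: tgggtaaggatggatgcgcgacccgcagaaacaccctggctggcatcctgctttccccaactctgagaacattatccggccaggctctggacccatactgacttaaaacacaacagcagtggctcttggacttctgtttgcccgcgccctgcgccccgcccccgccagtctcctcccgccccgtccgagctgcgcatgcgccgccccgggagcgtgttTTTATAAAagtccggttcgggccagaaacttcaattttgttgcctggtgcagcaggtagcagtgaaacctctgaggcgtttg
Cxcl12: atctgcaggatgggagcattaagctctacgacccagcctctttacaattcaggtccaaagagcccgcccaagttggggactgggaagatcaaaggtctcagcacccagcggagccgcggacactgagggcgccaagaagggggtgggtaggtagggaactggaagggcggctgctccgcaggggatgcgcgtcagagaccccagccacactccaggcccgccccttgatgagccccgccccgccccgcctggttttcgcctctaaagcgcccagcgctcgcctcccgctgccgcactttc

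The RefSeq table held a promoter for 40 of the 54 members. These 40 had 44 promoters, and 3 of them had more than 1 start. A member counted as a match if any of its promoters matched, while the share of all promoters counted each promoter. The shares set beside each other thus differ in unit. The kappa B motif was found in 11 of the 40 members (27.5%) and in 5.80% of all 32851 promoters. Of these 11 members 5 were tested. Ccl9 differed by 1.70, Cxcl1 by 0.43, Ackr2 by 0.13, Ccl20 by 0.09 and Cxcl2 by 0.08, of which Ccl9, Cxcl1 and Ackr2 were without overlap. Cxcl1 and Ackr2 had passed the filter through the knockout arrays. GAGGAA was found in 13 of 40 members (32.5%) and 28.3% of all promoters, TATAAA in 13 (32.5%) and 13.6%, TGANTCA in 8 (20.0%) and 7.81%, and TTCNNNGAA in 4 (10.0%) and 8.30%. A match is a run of letters and not a tested binding site.

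Cxcl12 and its receptors differed in different directions. Cxcl12, the stromal chemokine that retains leukocytes and progenitors, read 8.64 and 8.45 in the knockout arrays, against 9.12 and 10.12 in the control arrays. The knockout mean was 8.54 ± 0.13 and the control mean 9.62 ± 0.71 (SD, n = 2 each). The difference was -1.07 (SE 0.35; adjusted p = 0.380, limma). Both knockout values lay below both control values, and control replicate 2 was the highest. Leaving out control replicate 2 gave -0.57, and leaving out control replicate 1 gave -1.57. Cxcr4, the signalling receptor of Cxcl12, read 8.11 and 8.28 in the knockout arrays, against 6.78 and 6.60 in the control arrays. The knockout mean was 8.19 ± 0.12 and the control mean 6.69 ± 0.13 (SD, n = 2 each). The groups were far apart for their spread, with a difference of 1.51 (SE 0.15, 95% interval 1.10 to 1.91; adjusted p = 0.144, limma), or 2.84-fold. Leaving out each array in turn gave 1.42 to 1.59. Ackr3, the atypical receptor that takes up Cxcl12, read 5.33 and 4.77 in the knockout arrays, against 5.36 and 6.28 in the control arrays, so the groups were apart by the narrow gap between the replicates numbered 1. The Ackr3 difference was -0.78 (SE 0.37; adjusted p = 0.502, limma), and -0.32 without control replicate 2.

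Cx3cl1 and its receptor also differed in opposite directions. Cx3cl1, the membrane-bound chemokine fractalkine, read 3.44 and 3.11 in the knockout arrays and 3.61 and 3.91 in the control arrays, a difference of -0.48 (SE 0.19; adjusted p = 0.447, limma). These values of Cx3cl1 lay not far above the filter level of 3.02. Cx3cr1, its receptor on monocytes and macrophages, read 6.55 and 6.07 in the knockout arrays and 5.89 and 5.66 in the control arrays, a difference of 0.54 (SE 0.22; adjusted p = 0.447, limma). Neither gene's groups overlapped. The endothelial markers moved with Cxcl12, Ackr3 and Cx3cl1. Of 9 tested 6 were lower and 1 higher without overlap, beside 27.5% and 16.7% of all tested genes. The summed linear signal of these markers was 230 and 262 in the knockout arrays, against 1345 and 660 in the control arrays. It was lower in the knockout arrays. Among the control arrays it was higher in replicate 1, while Cxcl12, Ackr3 and Cx3cl1 were higher in replicate 2. The part of endothelial cells in these differences was not tested, and in RNA from whole cultures fewer cells of a type and less RNA per cell cannot be told apart.

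The CC ligands of the Ccl3 gene cluster were higher in the knockout arrays by group mean in 5 of 5 members. These genes, Ccl5, Ccl9, Ccl6, Ccl3 and Ccl4, lie on chromosome 11 with at most 3 other protein coding genes between neighbours. They encode attractants of monocytes, macrophages and T cells that act largely through Ccr1 and related receptors. Ccl3 read 7.68 and 8.97 in the knockout arrays and 6.44 and 7.12 in the control arrays, a difference of 1.55 (SE 0.49; adjusted p = 0.367, limma). Ccl4 read 6.89 and 6.89 in the knockout arrays and 5.69 and 6.07 in the control arrays, a difference of 1.01 (SE 0.18; adjusted p = 0.218, limma). Ccl9, a chemokine gene of rodents, read 6.88 and 7.67 in the knockout arrays and 5.19 and 5.95 in the control arrays, a difference of 1.70 (SE 0.38; adjusted p = 0.267, limma). The groups of these 3 genes did not overlap, and the 95% interval of each difference lay above 0.

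The other 2 ligands of that cluster turned on a single array. Ccl5 (RANTES), made by T cells and macrophages, read 5.13 and 7.56 in the knockout arrays and 4.66 and 5.27 in the control arrays. Ccl6 read 6.54 and 10.12 in the knockout arrays and 6.64 and 7.82 in the control arrays. In both genes knockout replicate 2 stood above the other 3 arrays. Knockout replicate 1 lay between the control arrays for Ccl5 and below both for Ccl6. Without knockout replicate 2 the Ccl5 difference was 0.17 in place of 1.38, and the Ccl6 difference was -0.69 in place of 1.10. Ccr1, the receptor they share with Ccl3 and Ccl9, read 4.02 and 5.70 in the knockout arrays and 3.31 and 3.35 in the control arrays. Its groups did not overlap, with a difference of 1.53 (SE 0.56; adjusted p = 0.411, limma) over all arrays and 0.69 without knockout replicate 2.

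The second CC cluster on chromosome 11, with the ligands of Ccr2, had a median difference of 0.27 over 5 tested genes, beside 1.38 for the cluster of Ccl3. The gap between these medians was not tested. Ccl2, the main monocyte attractant of the vessel wall, read 10.12 and 10.65 in the knockout arrays and 10.40 and 10.18 in the control arrays, a difference of 0.10 (95% interval -0.50 to 0.69; adjusted p = 0.903, limma) with overlapping groups. Ccl7, another Ccr2 ligand, read 9.88 and 9.76 in the knockout arrays and 9.63 and 9.47 in the control arrays, a difference of 0.27 (SE 0.15; adjusted p = 0.540, limma). Ccl12, a mouse ligand of Ccr2, read 4.75 and 3.16 in the knockout arrays and 2.37 and 2.93 in the control arrays, and its difference was 1.31 with all arrays and 0.51 without knockout replicate 1. Its control mean was below the filter level, which it passed through the knockout arrays. Ccl11 (eotaxin), which draws eosinophils, and Ccl8 differed by 0.37 and -0.15, with overlapping groups. Ccr2 itself was too dim to test, at 2.57 and 3.10 in the knockout arrays and 2.27 and 2.51 in the control arrays.

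**Figure D2:**
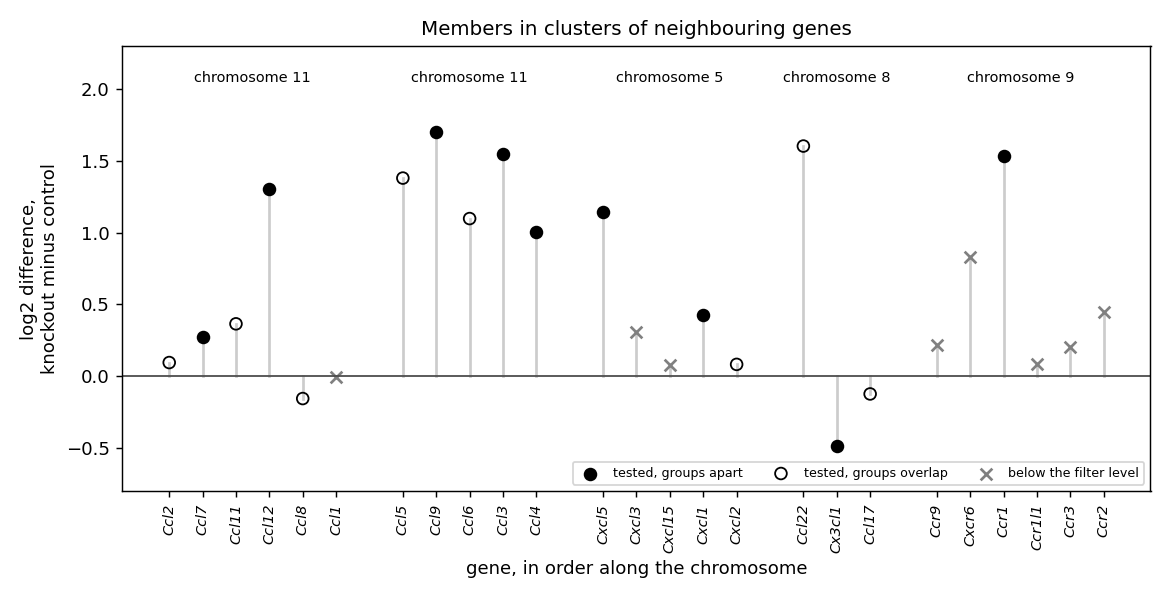
Log2 difference, knockout minus control (y axis), of members in the 5 clusters of at least 3 neighbouring member genes, in their order along the chromosome (x axis). Filled circles are tested genes whose groups do not overlap, open circles tested genes whose groups overlap, and crosses genes below the filter level. All 5 genes from Ccl5 to Ccl4 stand at or above 1.01, while Ccl2, Ccl7, Ccl11 and Ccl8 of the neighbouring cluster lie between -0.15 and 0.37 and Ccl12 stands at 1.31.

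Cxcl16 had the smallest adjusted p of the ligands. Cxcl16 is a membrane-bound chemokine that also serves as a scavenger receptor for oxidised lipoprotein and is shed by Adam10. It read 7.70 and 7.93 in the knockout arrays and 6.84 and 6.43 in the control arrays, a difference of 1.18 (SE 0.20, 95% interval 0.66 to 1.71; adjusted p = 0.203, limma), or 2.27-fold. Leaving out each array in turn gave 0.98 to 1.38. Its receptor Cxcr6, found on T cells, was too dim to test, with 2.67 and 3.84 in the knockout arrays and 2.31 and 2.54 in the control arrays, and only knockout replicate 2 lay above the filter level.

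Cxcl14, a CXC chemokine of epithelia and fibroblasts, had the largest positive difference of all 12550 genes tested with all 4 arrays. It read 8.63 and 6.42 in the knockout arrays and 5.39 and 4.67 in the control arrays, a difference of 2.50 (SE 0.77, 95% interval 0.49 to 4.51; adjusted p = 0.356, limma), or 5.65-fold. Both knockout arrays were above both control arrays, and knockout replicate 1 was the highest. Without knockout replicate 1 the difference was 1.39 and its rank was 190. Without control replicate 2 the rank was 12, and without control replicate 1 it was 2. Of 5 tested fibroblast markers 1 was higher and 1 lower without overlap, beside 16.7% and 27.5% of all tested genes. The fibroblast list had summed linear signals of 904 and 772 in the knockout arrays and 637 and 878 in the control arrays. The part of fibroblasts in the Cxcl14 difference was not tested.

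Among the neutrophil attractants that act on Cxcr2, Cxcl5 was higher in both knockout arrays than in both control arrays. Cxcl5 read 4.64 and 5.47 in the knockout arrays and 3.48 and 4.34 in the control arrays, a difference of 1.15 (SE 0.41; adjusted p = 0.400, limma) without overlap. Cxcl1 read 3.27 and 3.47 in the knockout arrays and 3.20 and 2.68 in the control arrays, a difference of 0.43 (SE 0.22; adjusted p = 0.534, limma). Its groups did not overlap, but its control mean of 2.94 was below the filter level, which it passed through the knockout arrays. Cxcl2 differed by 0.08 with overlapping groups, and its sign turned when control replicate 2 or knockout replicate 1 was left out. Ppbp, a further Cxcr2 ligand with another kind of name, read 3.04 and 3.08 in the knockout arrays and 4.20 and 2.82 in the control arrays, with overlap. Cxcr2 read 3.15 and 3.46 in the knockout arrays and 3.50 and 3.41 in the control arrays, a difference of -0.15 (adjusted p = 0.774, limma). The interferon-induced ligands Cxcl9, Cxcl10 and Cxcl11 and their receptor Cxcr3 were all below the filter level, with differences of -0.24, -0.04, 0.00 and -0.14.

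Ligands known from lymphoid organs and mucosa were also among the tested members. Ccl25, which guides T cells to the gut and thymus, read 3.25 and 3.69 in the knockout arrays and 4.17 and 3.98 in the control arrays, a difference of -0.60 (SE 0.20; adjusted p = 0.385, limma) without overlap, and -0.82 to -0.38 when each array was left out. Cxcl17, a chemokine of mucosal tissue, differed by -0.19 without overlap. Ccl26, a tested ligand outside that group, differed by 0.36 without overlap. It read 3.53 and 3.63 in the knockout arrays and 3.28 and 3.16 in the control arrays, not far above the filter level of 3.02. Cxcl13, which forms B cell follicles, differed by -0.24 and Ccl20, the ligand of Ccr6, by 0.09, both with overlap.

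Ccl22, an attractant of Ccr4-bearing T cells that dendritic cells and macrophages make, read 2.59 and 6.65 in the knockout arrays and 2.70 and 3.33 in the control arrays. Knockout replicate 2 stood alone, and without it the difference was -0.43 in place of 1.60. The control mean of Ccl22 was below the filter level, which it passed through the knockout arrays. Ccl17, the other Ccr4 ligand, in the same cluster on chromosome 8, read 3.77 and 4.44 in the knockout arrays. It read 3.62 and 4.84 in the control arrays, with overlap. Itgax, a dendritic cell and macrophage integrin, was also highest in knockout replicate 2, at 6.28 and 8.75 in the knockout arrays and 5.54 and 6.90 in the control arrays. The dendritic cell list had 2 of 5 genes above the filter level, both with overlapping groups, and summed linear signals of 111 and 462 in the knockout arrays and 75.4 and 153 in the control arrays. Flt3, Zbtb46 and Xcr1 of that list were below the filter level. The part of dendritic cells in the Ccl22 value was not tested. Ccr7, the receptor that directs dendritic cells to lymph nodes, read 4.80 and 4.81 in the knockout arrays and 4.54 and 4.72 in the control arrays, a difference of 0.18 (SE 0.14; adjusted p = 0.674, limma).

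**Figure D3:**
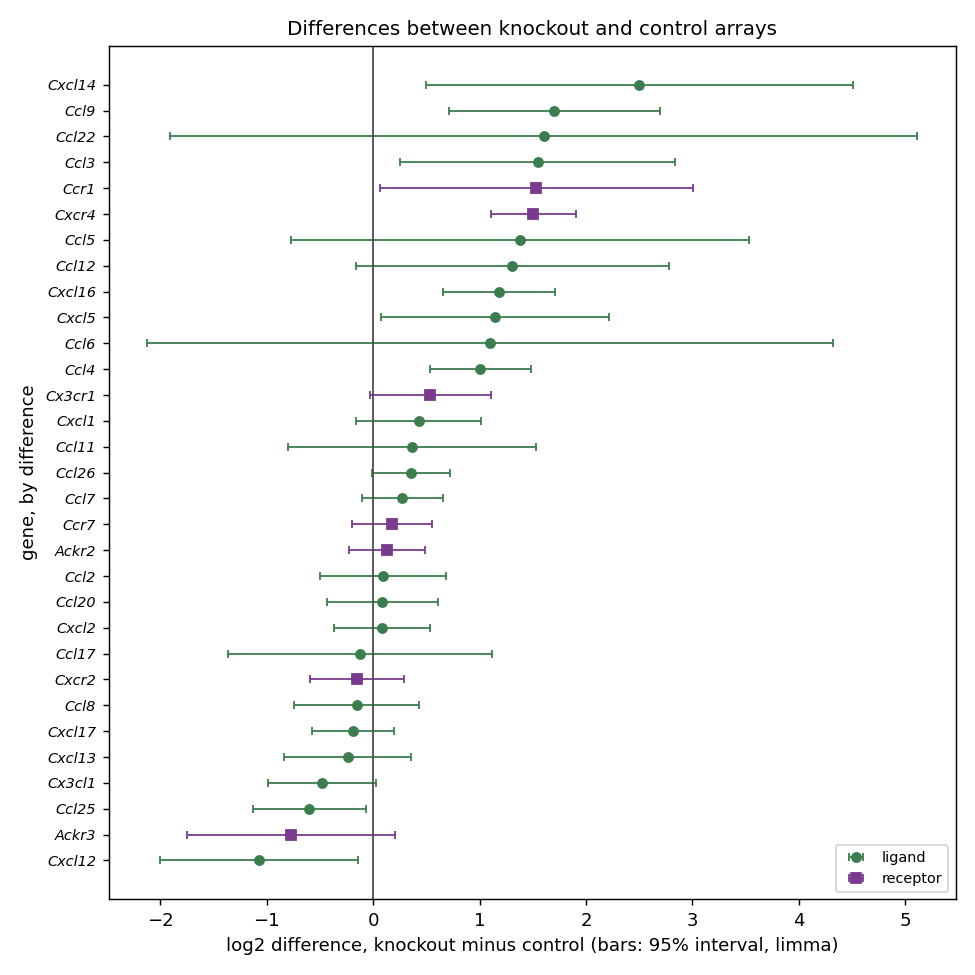
Log2 difference, knockout minus control (x axis), of the 31 tested members (y axis, ordered by difference), with circles for ligands, squares for receptors and bars for the 95% interval from limma with 2 arrays per group. Cxcr4 has a short interval of 1.10 to 1.91, and the intervals of Ccl22 and Ccl6 reach from -1.91 to 5.11 and from -2.12 to 4.32.

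Set side by side, 17 of 24 tested ligands and 5 of 7 tested receptors had a difference above 0, which held for 41.7% of all tested genes. Among ligands 10 were higher and 4 lower without overlap, beside 16.7% higher and 27.5% lower of all tested genes. Among receptors 5 were higher (Ccr1, Cxcr4, Cx3cr1, Ccr7 and Ackr2) and 1 lower (Ackr3). Ccl12, Cxcl1 and Ackr2, counted as higher, and Ccl22, counted above 0, had passed the filter through the knockout arrays. The counts and medians of tested members thus describe and do not support a direction. Without these 4 members, 12 were higher, 5 lower and 10 overlapped. The median difference was 0.36 for the tested ligands and 0.18 for the tested receptors, beside -0.05 for all tested genes. With the dim members included the medians were 0.087 over 33 ligands and 0.089 over 21 receptors. The ligand median was 0.20 without knockout replicate 2, and the receptor median was 0.27 without control replicate 2 and 0.12 without control replicate 1. The filter was passed by 24 of 33 ligands and 7 of 21 receptors. Of 29 textbook pairs of a ligand and a receptor, 12 had a tested ligand and a dim receptor and 0 the reverse. In the 10 pairs with both tested, the differences had the same sign in 5 and opposite signs in 5. The 4 pairs of Ccr1 were among the 5 with the same sign. The pairs of Cxcr2 with Cxcl1, Cxcl2 and Cxcl5 were among the 5 with opposite signs. Cxcr2 differed by -0.15 with overlapping groups, and its sign turned when knockout replicate 1 was left out.

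Replicates of the members lay farther apart than those of the median tested gene. The median SD of a tested member was 0.30 in the knockout arrays and 0.29 in the control arrays, beside 0.13 in the knockout arrays and 0.13 in the control arrays for all tested genes. Replicates lay apart by at least 1 for 7 members in the knockout arrays, Ccl6, Ccl3, Cxcl14, Ccl5, Ccl22, Ccl12 and Ccr1, and for 2 in the control arrays, Ccl6 and Ccl17. Knockout replicate 2 was the highest of the 4 arrays for 16 of 31 tested members, and knockout replicate 1 for 6. Over all 12550 tested genes, knockout replicate 2 was the highest for 3115 and knockout replicate 1 for 2237. Without knockout replicate 2, 18 members had a difference above 0 in place of 22, and 40.7% of all tested genes did in place of 41.7%. In that setting 10 members were lower without overlap in place of 5, and of all tested genes 43.3% were, in place of 27.5%. Without control replicate 1, 8 members and 41.5% of all tested genes were lower without overlap. Groups with fewer arrays have fewer values that can overlap.

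Macrophage markers moved between the same groups. Of the 11 on the list, 10 were higher in the knockout arrays without overlap and 0 lower, beside 16.7% and 27.5% of all tested genes. Their summed linear signal was 5310 and 6360 in the knockout arrays, against 3687 and 3514 in the control arrays, and 0 of the 11 were below the filter level. Ccl3, Ccl4, Ccl9, Cxcl16, Ccr1 and Cx3cr1 are known from macrophages, and all were picked from the members that were higher without overlap. Ccl5 (1.38) and Ccl22 (1.60), which macrophages also make, had overlapping groups. So did the ligands Ccl2 (0.10), Cxcl2 (0.08), Ccl8 (-0.15) and Ccl17 (-0.12). The part of macrophages in the differences of these members was not tested. Of 8 smooth muscle markers 0 were higher and 2 (25%) lower without overlap, beside 16.7% and 27.5% of all tested genes. The smooth muscle list had summed linear signals of 5087 and 3329 in the knockout arrays and 4868 and 3437 in the control arrays. Of 8 T and NK cell markers 6 were below the filter level, Cd3d, Cd3e, Cd3g, Cd4, Cd8a and Ncr1, and all 4 B cell markers were, with summed signals of 67.4 and 72.6 in the knockout arrays and 59.4 and 62.7 in the control arrays for the T and NK cell list. The B cell list summed to 23.7 and 23.6 in the knockout arrays and 23.3 and 25.9 in the control arrays. The monocyte and neutrophil list had 4 of 8 markers above the filter level, of which 1 was higher without overlap, and signals of 498 and 352 in the knockout arrays and 199 and 331 in the control arrays.

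**Figure D4:**
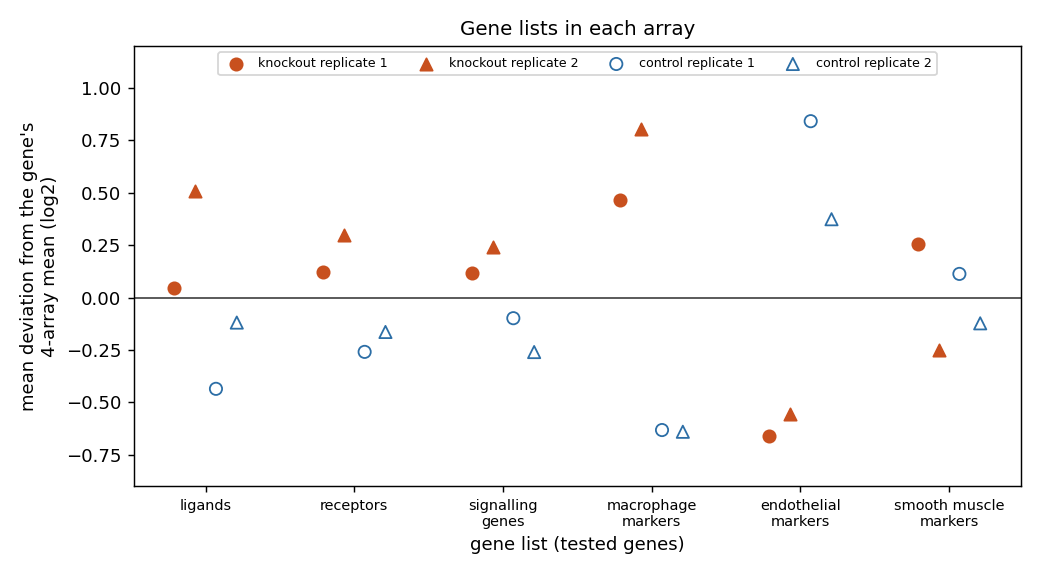
Mean deviation of the tested genes of each list from the gene's mean over 4 arrays, in log2 units (y axis), for the ligands, the receptors, the signalling genes and 3 marker lists (x axis), with filled symbols for knockout arrays, open symbols for control arrays, circles for replicate 1 and triangles for replicate 2. Ligands stand at 0.05 and 0.51 in the knockout arrays and -0.43 and -0.12 in the control arrays, and macrophage markers at 0.47 and 0.81 in the knockout arrays and -0.63 and -0.64 in the control arrays.

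Genes that carry the signal inside the cell were described from a list of 49 G protein, arrestin, kinase and Rac pathway genes. Of 46 tested, 19 were higher and 8 lower in the knockout arrays without overlap, beside 16.7% and 27.5% of all tested genes. The median difference of the 46 was 0.31. Vav1, a Rac activator of blood cells, differed by 1.60. Rac2, the Rac of blood cells, read 8.06 and 8.68 in the knockout arrays and 6.88 and 6.85 in the control arrays. Pik3r5, the adaptor of the G protein-activated PI3 kinase, differed by 1.47, and Arrb2, the arrestin that turns off and internalises chemokine receptors, read 6.82 and 7.08 in the knockout arrays and 5.50 and 5.48 in the control arrays, a difference of 1.46 (SE 0.16; adjusted p = 0.144, limma). None of the 46 passed the adjustment over all genes by limma. Rac2, Vav1 and Pik3r5 are genes of blood cells, and the macrophage markers moved with them; the part of macrophages in their differences was not tested. Gnai1, a G protein subunit of the inhibitory class, differed by -1.15 without overlap.

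Among 11 chemokine genes and relatives with other names, 6 were tested, with a median of 0.15. Of these 2 were higher without overlap and 0 lower, beside 16.7% and 27.5% of all tested genes. Pf4, the platelet factor that is the CXC ligand 4 gene in the standard nomenclature, read 5.49 and 8.12 in the knockout arrays and 4.34 and 5.24 in the control arrays, a difference of 2.02 (SE 0.91; adjusted p = 0.485, limma), highest in knockout replicate 2. The other was Cklf, at 0.23. Of 8 tested proteases that cut or shed chemokines, 2 were higher and 1 lower without overlap, beside the same shares of all tested genes. Anpep, the aminopeptidase CD13, read 9.99 and 10.35 in the knockout arrays and 8.83 and 8.95 in the control arrays, a difference of 1.28 (SE 0.18; adjusted p = 0.161, limma). Adam17, a sheddase of Cx3cl1, differed by 0.44, and the gene that was lower was Mmp14 itself. Dpp4, which inactivates Cxcl12, was below the filter level.

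NF-kB factors and the cytokines and receptors that induce chemokine genes had a median difference of 0.17 over 19 tested genes. Of these 8 were higher and 1 lower without overlap, beside 16.7% and 27.5% of all tested genes. Tnfrsf1b, a receptor of TNF, differed by 1.17, Rel, the NF-kB subunit of blood cells, by 0.93, Bcl3 by 0.84 and Tnf by 0.68. By limma 0 of the 19 passed the adjustment over all genes.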

How the data were processed

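Total RNA of 4 VSMC cultures (2 knockout, 2 control) was amplified from 10 ng and hybridised to Mouse Gene ST 2.1 strips, per the labels. The deposited table holds log2 expression values of 41345 rows from RMA, as named in the submitters' processing notes. That they are log2 was read from their range, 1.17 to 12.4. No source used here gives the chip definition or genome build. The number of arrays limits the precision.

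Symbols came from the platform annotation, with 23521 rows of 1 symbol and 1814 of several; 23328 gene numbers matched RefSeq (GRCm38.p6) and 0 symbols changed. The 33 rows with several symbols, a member's among them, were not used. Only Ccl27a had several rows, all dim. Genes with a mean below 3.02 were left out and 12550 were fitted without covariates in limma 3.58.1 (lmFit, eBayes; R 4.3.3), knockout minus control, with Benjamini-Hochberg adjustment over all of them. The spread behind each p-value holds mouse, culture and array together. The summed linear signal of a list adds 2 to the power of each gene's value. The fit was checked on simulated data. Figures used matplotlib 3.10.9.

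The members, lists and motifs were chosen with earlier results of these data known. Named were Mmp14, 12 members set by name (1 more was not analysed here) and, in each direction, up to 6 tested ligands and 6 receptors with the largest difference and no overlap, plus up to 4 genes per list; other members are named in counts or with values. Gnai1, Ppbp, Itgax and Dpp4 are not covered by it; they were picked with their values in view. Neighbouring members had at most 3 other protein coding genes between them. Alternatives were the title number as a block, other filters, further normalisation, the mean of rows, other variance models, array weights and leaving out each array.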

Additional observations from a re-analysis of the deposited data

How the results depend on the processing

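Limma called 0 members and 0 genes in all 13 refits, and the smallest adjusted p of a member over them was 0.0764. With the title number as a replicate block, 0 members were called. The block does not enter the group differences or their overlap. The 15 members higher and 5 lower without overlap and the ligand and receptor medians of 0.36 and 0.18 thus stayed by construction. The adjusted p could change, and by limma it was smallest for Ccl9, at 0.0942 in place of 0.267. It was 0.103 in place of 0.144 for Cxcr4, and rose from 0.760 to 0.829 for Ackr2. Over all tested genes the deviations of same-numbered arrays had an r of 0.05. The mice came in pairs, but the labels do not say that the title number marks them, so the numbers are not treated as pairs. If they were, both same-numbered differences would lie above 0 for 18 members and below 0 for 6, beside 22.6% and 36.2% of all tested genes. Among members whose groups overlap, Ccl5 (0.47 and 2.29), Ccl11 (0.38 and 0.36), Cxcl2 and Ccl8 have both differences of one sign. For the 31 tested members and Mmp14, most refits with all arrays return the same difference and could not change a sign. Only the further normalisation could move it, and there no sign changed. When each array was left out, 22 of these genes kept their sign in every refit and 10 changed it. Over those refits Ccl11 ran from -0.10 to 0.83, Ccl17 from -0.74 to 0.49, Ccl2 from -0.17 to 0.36, Ccl20 from -0.12 to 0.30, Ccl22 from -0.43 to 3.63, Ccl6 from -0.69 to 2.89, Ccl8 from -0.37 to 0.062, Cxcl13 from -0.52 to 0.036, Cxcl2 from -0.066 to 0.23 and Cxcr2 from -0.30 to 0.0045. The filter decides which members count. With no filter on dim genes the ligand median was 0.087 and the receptor median 0.089, with 36 of 54 members above 0, 21 higher and 8 lower without overlap. Of all 22180 genes 47.1% were then above 0, 17.9% higher and 22.1% lower without overlap. With the filter at the 75th percentile the medians were 1.10 and 0.54, with 11 of 14 members above 0, 8 higher and 2 lower without overlap. Of the 6787 genes past that filter 36.7% were above 0, 15.6% higher and 32.5% lower without overlap. Leaving out each array gave ligand medians of 0.20 to 0.46, receptor medians of 0.12 to 0.27, 18 to 23 members above 0, 16 to 20 higher and 6 to 10 lower without overlap. Of all tested genes 40.7% to 43.9% were then above 0, 27.7% to 31.7% higher and 41.4% to 43.4% lower without overlap. Where 1 array remained in a group, its spread was taken from the other group. The count of members above 0, the same-numbered differences and the shares of all genes were chosen after seeing the data.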
